A study of Mus musculus with 12 samples.

Results

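The genes described here are 35 transcripts of the endoplasmic reticulum (ER) that make up its chaperones, the sensors of the unfolded protein response (UPR) and the machinery of ER-associated degradation (ERAD). They were taken by symbol from a list of mouse genes, and all 35 were found among the 50686 genes of the count table. All 35 were also among the 14248 genes that had enough counts to be tested. The samples were livers of FVB/N mice injected through the tail vein at 6 to 8 weeks of age with small interfering RNA (siRNA) in lipid nanoparticles at 0.5 mg/kg, with 1 injection in 5 days. The siRNA was directed at Eif3m, which encodes a subunit of translation initiation factor eIF3, or was a scrambled luciferase control, so that every liver had received nanoparticles. Messenger RNA was sequenced from 3 control and 3 Eif3m siRNA livers at day 9 and from as many of each at day 13, 12 libraries in all. RNA came from ground whole liver, in which fewer cells of a type and less RNA per cell cannot be told apart. Whether replicate livers of a group stem from different animals is not stated in the labels, and p-values therefore reflect no more than the spread among the samples at hand.

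Secreted and membrane proteins enter the ER through the Sec61 channel, fold with the help of chaperones and disulfide isomerases, and are sent back to the cytosol for destruction by ERAD when folding fails. Load on the ER is sensed by 3 membrane proteins, IRE1 (gene Ern1), PERK (gene Eif2ak3) and ATF6, which act through the spliced factor XBP1, through phosphorylation of the initiation factor eIF2α with translation of ATF4, and through a cleaved fragment of ATF6 itself. Hepatocytes make most plasma proteins, and their ER is correspondingly large. A count of gene transcripts does not show splicing of Xbp1, cleavage of ATF6 or phosphorylation of PERK and eIF2α, none of which was measured here.

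Promoters were searched first for the letters of known response elements, since ATF6 and XBP1 are known to act on chaperone genes through such sites. RefSeq windows from 250 bases before to 50 bases after a transcription start (GRCm38.p6, the mm10 build) were matched for 30 of the 35 members. No window was matched for Atf6, Hyou1, Manf, Derl1 and Sec61a1. The ER stress response element (ERSE), which is CCAAT, 9 bases of any kind and CCACG, searched on both strands like the other motifs, was present in 9 of these 30 members (30.0%) and in 37 of 27025 genes with a window (0.137%). The shorter ERSE-II, which is ATTGG, 1 base of any kind and CCACG, was present in 2 members, Herpud1 and Dnajb11, and in 12 genes in all (0.0444%). These elements were already known from chaperone genes, so their higher share among members chosen by function is not an independent result. The copies are shown 5′ to 3′ in the direction of the motif, with the fixed letters in capitals.

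Hspa5: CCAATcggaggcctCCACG
Hsp90b1, far copy: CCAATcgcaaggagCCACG
Hsp90b1, near copy: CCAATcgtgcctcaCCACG
Dnajc3: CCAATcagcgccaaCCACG
Creld2: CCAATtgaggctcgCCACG
Calr: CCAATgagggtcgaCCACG
Canx: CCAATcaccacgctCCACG
Pdia6: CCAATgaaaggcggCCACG
Syvn1: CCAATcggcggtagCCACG
Derl3: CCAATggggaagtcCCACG
Herpud1, ERSE-II: ATTGGgCCACG
Dnajb11, ERSE-II: ATTGGcCCACG

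The copy of Hspa5, the gene of the HSP70 chaperone BiP, lies on the plus strand at chr2:34772025-34772043, with its last base 47 bases before the RefSeq start. The gene as annotated in GENCODE M21 begins further upstream, at chr2:34771970, so that this copy lies inside it. Hsp90b1, the HSP90 of the ER, holds a pair of copies on opposite strands, with nearest bases 194 and 89 bases before its start. The ERSE-II letters of Dnajb11 begin 8 bases after its start, and those of Herpud1 end 42 bases before its start. The core of the XBP1 element UPRE, TGACGTG, was found in 1 member (Hspa5) and in 2.22% of all genes with a window. The amino acid response element of ATF4 and CHOP (CARE), TGATGNAA, was found in 1 member (Herpud1) and in 4.51% of all genes. No overlap between copies of different motifs was found among the members. A match gives letters only and does not show that a factor binds.

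**Figure D1:**
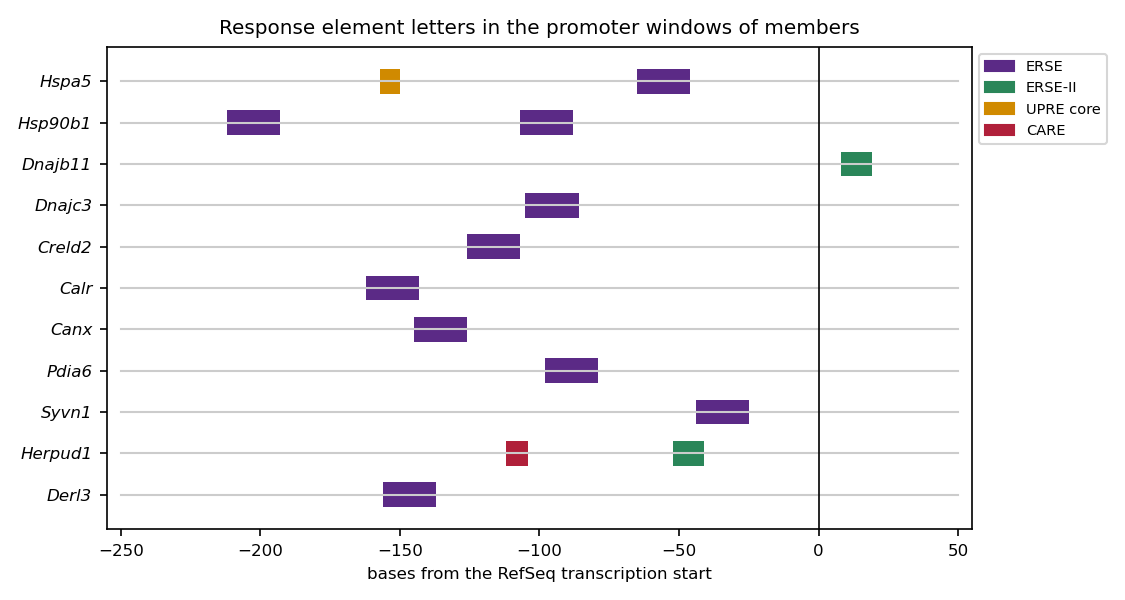
Positions of the ERSE, ERSE-II, UPRE core and CARE letters (coloured bars, drawn to scale) in the windows of the 11 members that hold any, with the distance in bases from the RefSeq transcription start (0) on the horizontal axis. All ERSE copies lie before the RefSeq start, the farthest in Hsp90b1.

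The upstream stretches of 4 members are printed because these differ in what the siRNA did. Derl3 and Dnajc3 are the only members with ERSE letters that passed the test at day 9 or day 13, Herpud1 holds both ERSE-II and CARE letters, and Hsp90b1 holds the pair of ERSE copies. The stretches end before the first annotated exon base and lie at chr10:86705510-86705694 on the minus strand (Hsp90b1), chr14:118937682-118937931 on the plus strand (Dnajc3), chr8:94386179-94386428 on the plus strand (Herpud1) and chr10:75893148-75893397 on the plus strand (Derl3), all in GRCm38.p6. They read 5′ to 3′ along the gene, and capitals mark the fixed letters of ERSE, ERSE-II or CARE, which appear as their reverse complement where the copy lies on the other strand.

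Hsp90b1: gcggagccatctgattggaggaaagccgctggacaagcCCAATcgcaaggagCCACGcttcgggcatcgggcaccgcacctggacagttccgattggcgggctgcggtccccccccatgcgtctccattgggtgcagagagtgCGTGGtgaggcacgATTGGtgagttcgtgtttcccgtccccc
Dnajc3: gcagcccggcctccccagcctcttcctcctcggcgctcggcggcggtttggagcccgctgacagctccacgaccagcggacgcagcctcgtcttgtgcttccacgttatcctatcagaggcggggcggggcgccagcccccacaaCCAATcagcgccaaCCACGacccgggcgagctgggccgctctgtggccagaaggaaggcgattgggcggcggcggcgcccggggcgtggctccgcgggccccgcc
Herpud1: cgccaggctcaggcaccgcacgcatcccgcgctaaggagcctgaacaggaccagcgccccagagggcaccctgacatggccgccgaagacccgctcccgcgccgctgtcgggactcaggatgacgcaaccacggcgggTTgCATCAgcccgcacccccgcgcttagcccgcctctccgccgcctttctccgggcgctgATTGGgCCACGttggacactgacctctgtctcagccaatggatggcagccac
Derl3: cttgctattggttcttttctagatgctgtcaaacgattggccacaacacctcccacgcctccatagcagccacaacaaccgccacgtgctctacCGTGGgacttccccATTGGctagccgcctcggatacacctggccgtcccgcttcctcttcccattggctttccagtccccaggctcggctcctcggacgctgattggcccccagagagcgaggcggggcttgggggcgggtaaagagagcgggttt

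Depth ran from 38783564 to 54538581 counts per library at day 9 and from 7650269 to 9630027 at day 13, and the days separated on the first principal component (40.1% of variance), so day, depth and any difference in handling cannot be told apart and effects were taken within a day. On the third component (9.44%), day 13 control replicate 3 (−52.0) and day 13 siRNA replicate 2 (−36.9) stood apart from the other libraries. Values are CPM, counts scaled to library size. The Eif3m transcript stood at 10.7% of its control level at day 9 and at 6.53% at day 13. The 8 markers of hepatocytes, the main cells of liver, summed to 130114 to 139484 CPM in the day 9 controls and 108580.0 to 117732 CPM after siRNA, and to 199487 to 227912 and 120024 to 188588 CPM at day 13. This sum was lower after siRNA without overlap at both days, with no marker at 0 in any library; 1 marker (Ttr) fell at day 9, and 2 rose and 2 fell at day 13. Albumin alone took a mean of 8.85% of counts in the day 9 controls and 7.24% after siRNA, and 14.6% and 9.83% at day 13. Of 9 Kupffer cell markers, 3 fell at day 9 and 8 at day 13, where their sum went from 295 to 384 CPM in the controls to 126 to 205 CPM after siRNA. The 8 monocyte markers summed to 55.7 to 70.4 CPM in the day 9 controls and 127 to 146 CPM after siRNA, with 3 up, and to 126 to 172 and 77.8 to 103 CPM at day 13, with 2 down. Of 7 endothelial and 7 stellate cell markers 1 each rose at day 9 and 3 each fell at day 13. Of all genes tested, 12.8% passed the test described below at day 9 and 23.7% at day 13. The part of these cells in the member values was not tested.

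Expressed per length (CPM per kilobase of merged exon), the members covered a wide range of levels. In the day 9 controls P4hb, a disulfide isomerase, had the highest mean level per length at 406, followed by the lectin chaperone Calr at 319, Hsp90b1 at 227 and Hspa5 at 164. These 4 held the same order of mean level in all 4 groups. The sensor gene Eif2ak3 was the 34th at 2.37 and Derl3, a derlin of ERAD, the last at 0.920 in the day 9 controls, and both kept these places in every group. The libraries of neighbouring members overlapped in 17 of 34 neighbouring pairs of the day 9 controls and in 27 of 34 of the day 13 controls. In the day 9 controls the top 4 did not overlap with each other, whereas in the day 13 controls Hsp90b1 overlapped with both Calr and Hspa5, and Eif2ak3 with Wfs1, the neighbour above it. Together the members took 0.741% to 0.798% of all counts in the day 9 controls and 0.753% to 0.825% after siRNA, and 0.703% to 0.857% and 0.782% to 0.898% at day 13, with overlap at both days. In CPM, to which the TMM factors are applied, their summed level was 7530.2 to 7955 in the day 9 controls and 7294 to 7501 after siRNA. The day 9 groups were thus apart on this scale and not as a share of counts. At day 13 the summed level was 7653 to 8929 CPM in the controls and 7990.5 to 8369 CPM after siRNA, inside the control range.

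**Figure D2:**
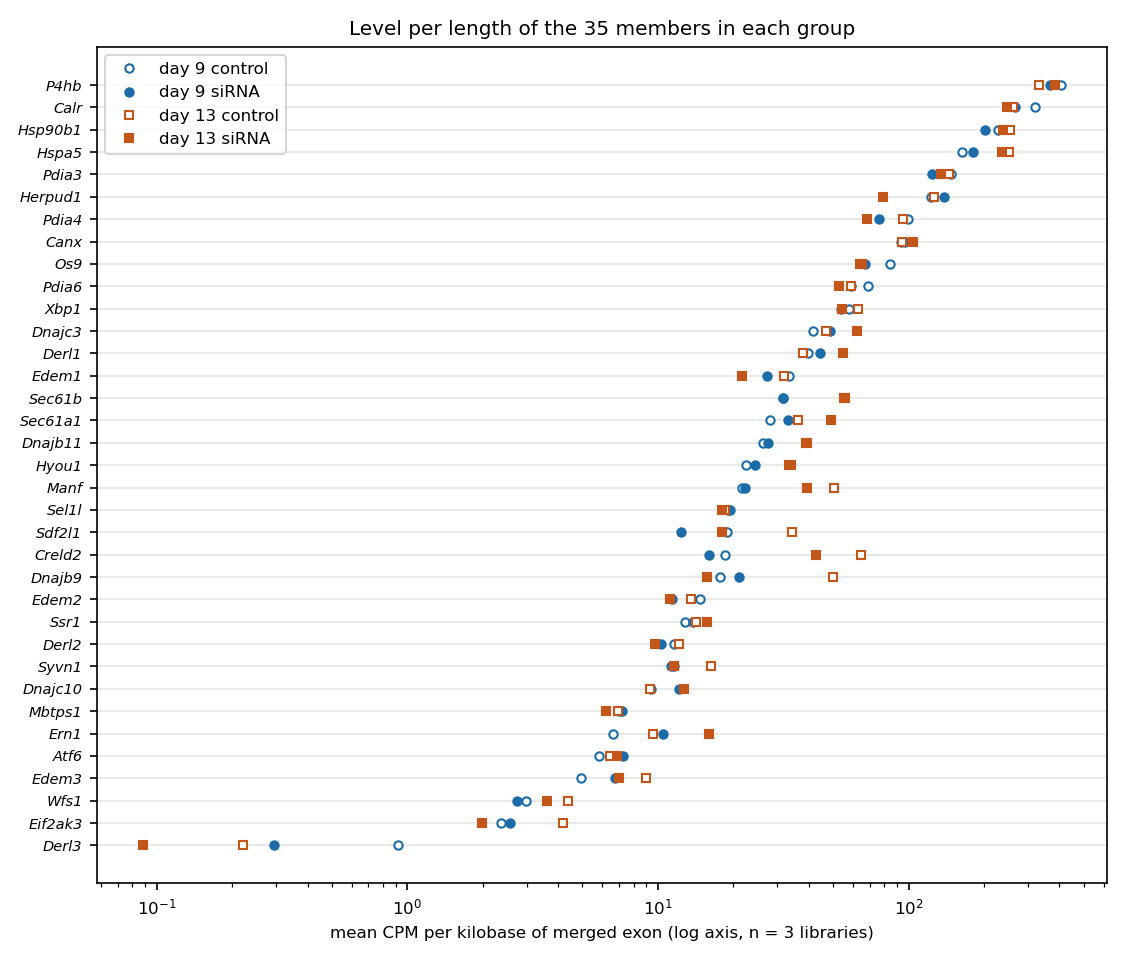
Mean level of each member in CPM per kilobase of merged exon (log axis, n = 3 libraries per group) in the 4 groups, ordered by the day 9 controls. P4hb, Calr, Hsp90b1 and Hspa5 stand at the top and Eif2ak3 and Derl3 at the bottom in every group, while Dnajb9, Creld2 and Manf lie higher in the day 13 controls than in the day 9 controls.

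Eif3m siRNA moved a minority of the members, in both directions, and P4hb, Calr, Hsp90b1 and Hspa5, the members of highest level per length, were not among those called at either day. The test was edgeR's quasi-likelihood test over all 14248 genes, and a gene was called where its Benjamini-Hochberg adjusted p was under 0.05. At day 9, 2 members rose (Ern1 and Dnajc10) and 3 fell (Pdia4, Derl3 and Os9), or 14.3% of the members, against 12.8% of all genes tested (5.94% higher and 6.84% lower). The share called among the members was thus near that of all genes. Their median log2 fold change (siRNA over control) was 0.03, against 0.01 over all genes. At day 13, 5 members rose (Ern1, Dnajc3, Dnajc10, Derl1 and Sec61a1) and 6 fell (Eif2ak3, Dnajb9, Sdf2l1, Pdia4, Herpud1 and Edem1), or 31.4%, against 23.7% of all genes (12.8% higher and 10.9% lower). The median was −0.11 (−0.10 without Derl3, which has 1 to 5 counts per library at day 13), against 0.00 over all genes. The siRNA and control libraries did not overlap for 6 higher and 12 lower members at each day, where 43.5% of all genes did not overlap at day 9 and 33.2% at day 13. Without the 2 day 13 libraries that stand apart, the counts were 4 up and 6 down at day 9, where the spread is shared by both days, and 5 up and 7 down at day 13. Exact permutation tests of 3 libraries against 3 cannot give a p under 0.1.

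**Figure D3:**
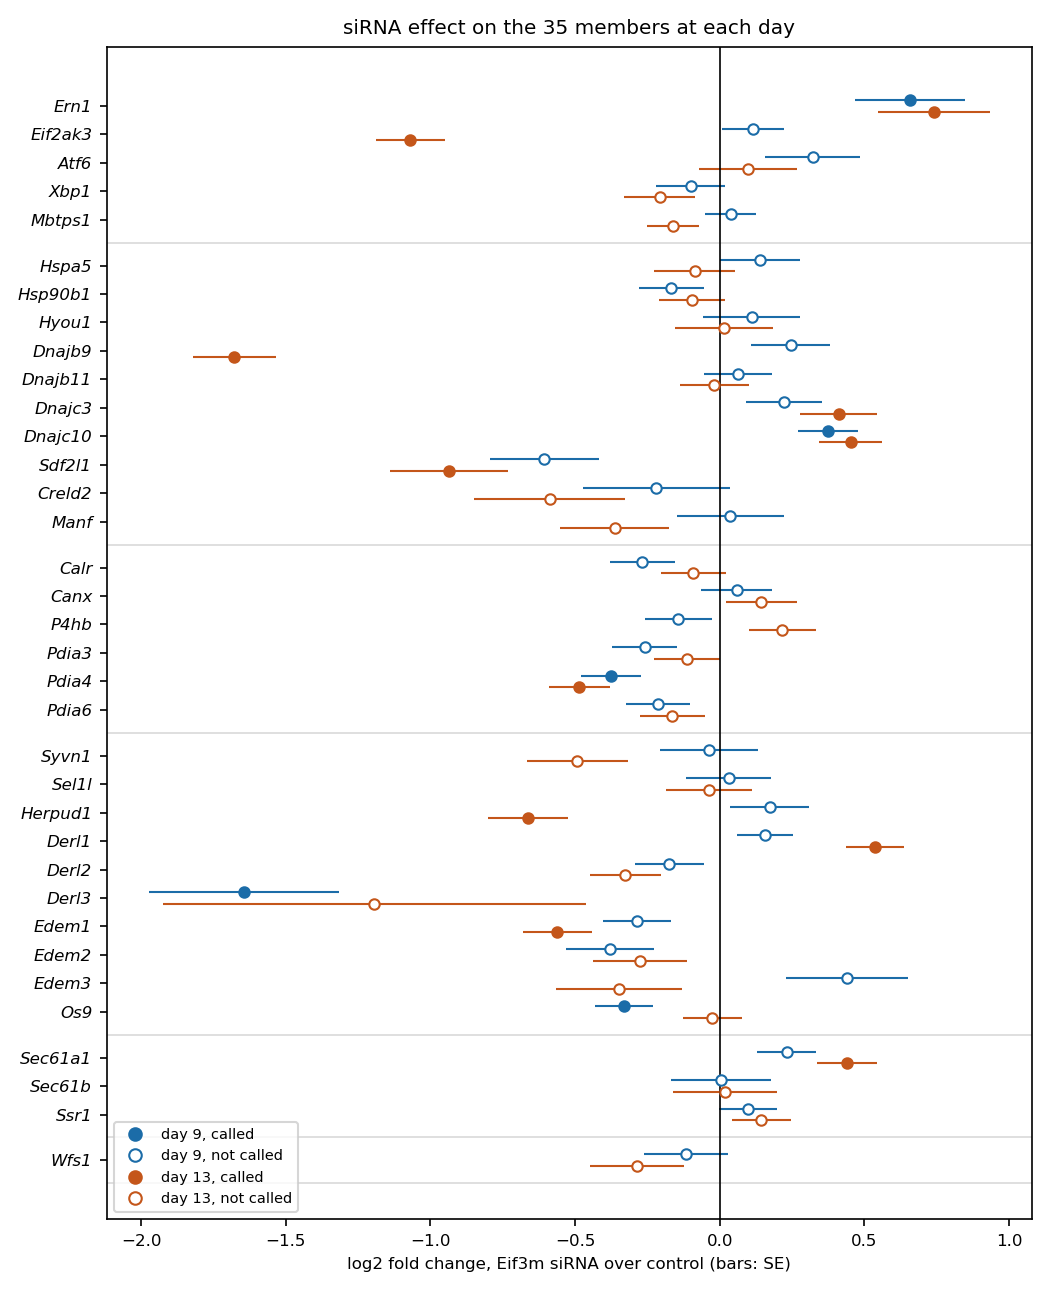
Log2 fold change of Eif3m siRNA over control with its SE for all 35 members at day 9 (blue) and day 13 (orange), grouped by role and with filled points for members called at an adjusted p under 0.05. Ern1, Dnajc10 and Pdia4 are called on the same side of 0 at both days, whereas Eif2ak3, Dnajb9 and Herpud1 are called at day 13 alone and lie above 0 at day 9; the day 13 value of Derl3 rests on 1 to 5 counts per library.

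Among the 3 sensors, the transcript of IRE1 rose at both days, that of PERK fell at day 13, and that of ATF6 did not pass the test. Ern1, the kinase and endonuclease that splices Xbp1, stood at 50.9, 59.2 and 52.6 CPM in the day 9 controls and at 71.2, 113 and 72.3 CPM after siRNA. At day 13 it stood at 71.6, 65.7 and 96.9 CPM in the controls and at 109, 145 and 138 CPM after siRNA. Every siRNA library lay above every control library of its day, with siRNA replicate 2 the highest at both days and control replicate 3 the highest control at day 13. The log2 fold change of Ern1 was 0.66 at day 9 (SE 0.190, edgeR adjusted p = 0.0375) and 0.74 at day 13 (SE 0.194, edgeR adjusted p = 0.0138). Its day 9 call ended without any 1 of the 3 day 9 controls, day 9 siRNA replicate 2 or day 13 siRNA replicate 3 (edgeR adjusted p = 0.0515 to 0.170), and without day 9 siRNA replicate 2 the value was 0.40. Its day 13 call ended when control replicate 1, control replicate 2 or siRNA replicate 3 of that day was left out (edgeR adjusted p = 0.0529 to 0.0583).

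Eif2ak3, the gene of the eIF2α kinase PERK, moved the other way and at day 13 alone. It stood at 24.4, 25.8 and 25.5 CPM in the day 13 controls and at 10.6, 12.2 and 13.0 CPM after siRNA. The siRNA libraries, which did not overlap the controls, lay at 47.5% of the control mean, with a log2 fold change of −1.07 (SE 0.120, edgeR adjusted p = 4.14e-05). At day 9 it stood at 13.5, 14.3 and 15.0 CPM in the controls and at 14.8, 14.7 and 16.9 CPM after siRNA, which overlapped (0.12, SE 0.107, edgeR adjusted p = 0.527). The day 13 controls thus lay above all other libraries, and the day 13 siRNA libraries slightly below the day 9 level. Exons of Eif2ak3 share 485 bases with the antisense gene Gm43292, and no source used here gives the strand setting of the counting.

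The other members of the signalling group were not called at either day. Atf6 stood at 55.0, 53.4 and 52.2 CPM in the day 9 controls and at 65.8, 70.1 and 64.8 CPM after siRNA, without overlap, but missed the threshold (0.32, SE 0.164, edgeR adjusted p = 0.225). Without the 2 day 13 libraries that stand apart the same effect of Atf6 was called (0.31, edgeR adjusted p = 0.0149), and it was called with the day 9 libraries fitted alone (0.32, edgeR adjusted p = 0.0120). At day 13 Atf6 overlapped, at 47.2, 53.4 and 77.7 CPM in the controls and 54.7, 77.6 and 58.7 CPM after siRNA (0.10, SE 0.170), the high value of each group being that of the library that stands apart. Xbp1, whose spliced form encodes the IRE1 factor, stood at 212, 180.4 and 171 CPM in the day 9 controls and at 195, 157 and 172 CPM after siRNA. At day 13 Xbp1 stood at 204, 192 and 216 CPM in the controls and at 173, 197 and 161 CPM after siRNA. The groups of Xbp1 overlapped at both days, with log2 fold changes of −0.10 (SE 0.121) and −0.21 (SE 0.122). Mbtps1, the site-1 protease that cleaves ATF6, stood at 71.6, 75.7 and 74.5 CPM in the day 9 controls and at 74.5, 74.0 and 79.1 CPM after siRNA (0.04, SE 0.0871). At day 13 all Mbtps1 siRNA libraries, at 65.2, 67.6 and 63.5 CPM, lay below the controls at 74.8, 70.7 and 74.1 CPM, and the effect was not called (−0.16, SE 0.0901, edgeR adjusted p = 0.217).

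The HSP70 and HSP90 chaperones themselves were not called at either day, while 4 of their cochaperones were. Hspa5, which encodes BiP and is the usual marker of ER stress, stood at 833, 628 and 615 CPM in the day 9 controls and at 764, 814 and 706 CPM after siRNA. At day 13 Hspa5 stood at 907, 1197 and 1082 CPM in the controls and at 1023, 978 and 997 CPM after siRNA. The siRNA libraries lay inside the control range at both days. The log2 fold change of Hspa5 was 0.14 at day 9 (SE 0.139, edgeR adjusted p = 0.566) and −0.09 at day 13 (SE 0.139, edgeR adjusted p = 0.702). Hsp90b1 (−0.17 and −0.10), the HSP70 relative and nucleotide exchange factor Hyou1 (0.11 and 0.02) and the J-domain cochaperone Dnajb11 (0.06 and −0.02) were likewise not called at day 9 or day 13. Creld2 (−0.22 and −0.59) and Manf (0.04 and −0.36), small secretable proteins of the ER, were not called either, with edgeR adjusted p = 0.124 and 0.181 at day 13.

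Dnajb9, a J-domain cochaperone of BiP also called ERdj4 and known to hold IRE1 inactive, had the largest change among the members called at day 13. Its transcript stood at 112, 123 and 148 CPM in the day 13 controls and at 35.1, 42.6 and 42.2 CPM after siRNA. The groups of Dnajb9 lay far apart, with the siRNA mean at 31.2% of the control mean and a log2 fold change of −1.68 (SE 0.143, edgeR adjusted p = 5.86e-06). At day 9 Dnajb9 stood at 42.6, 46.5 and 46.2 CPM in the controls and at 54.0, 44.8 and 61.7 CPM after siRNA, which overlapped (0.24, SE 0.136, edgeR adjusted p = 0.267). As for Eif2ak3, the day 13 controls lay above the other 9 libraries, and the day 13 siRNA libraries lay at or below the day 9 controls.

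The J-domain proteins Dnajc10 and Dnajc3 rose, and Sdf2l1 fell. Dnajc10, a J-domain reductase that aids ERAD, stood at 41.0, 48.8 and 50.5 CPM in the day 9 controls and at 64.6, 60.6 and 56.8 CPM after siRNA. At day 13 Dnajc10 stood at 43.9, 47.7 and 47.4 CPM in the controls and at 61.5, 62.0 and 66.8 CPM after siRNA. Its groups did not overlap at either day, with log2 fold changes of 0.37 (SE 0.104, edgeR adjusted p = 0.0305) and 0.45 (SE 0.108, edgeR adjusted p = 0.00804). The day 9 call of Dnajc10 ended with no filter on low counts, and when either control replicate 1 or 2 or either siRNA replicate 1 or 2 of day 9 was left out (edgeR adjusted p = 0.0555 to 0.126 for the libraries left out). Dnajc3, which encodes p58IPK, an inhibitor of PERK, stood at 196, 242 and 283 CPM in the day 13 controls and at 291, 353 and 315 CPM after siRNA. These groups of Dnajc3 lay close but did not overlap (0.41, SE 0.133, edgeR adjusted p = 0.0381). The call ended when the day 13 libraries were fitted alone (edgeR adjusted p = 0.116) and without day 9 siRNA replicate 1, day 13 control replicate 1 or 2 or day 13 siRNA replicate 2 or 3 (edgeR adjusted p = 0.0525 to 0.154). At day 9 Dnajc3 stood at 193, 224 and 226 CPM in the controls and at 249, 264 and 237 CPM after siRNA, without overlap and without a call (0.22, SE 0.132). Sdf2l1, a cofactor of the BiP cycle, stood at 31.1, 47.3 and 35.8 CPM in the day 13 controls and at 25.6, 17.1 and 17.4 CPM after siRNA (−0.94, SE 0.203, edgeR adjusted p = 0.00450). At day 9 Sdf2l1 stood at 22.7, 15.7 and 24.2 CPM in the controls and at 13.2, 14.1 and 13.8 CPM after siRNA. Its groups did not overlap at either day, and the day 9 effect of −0.61 lay at the threshold (SE 0.189, edgeR adjusted p = 0.0509), being called under 12 of 21 alternatives.

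**Figure D4:**
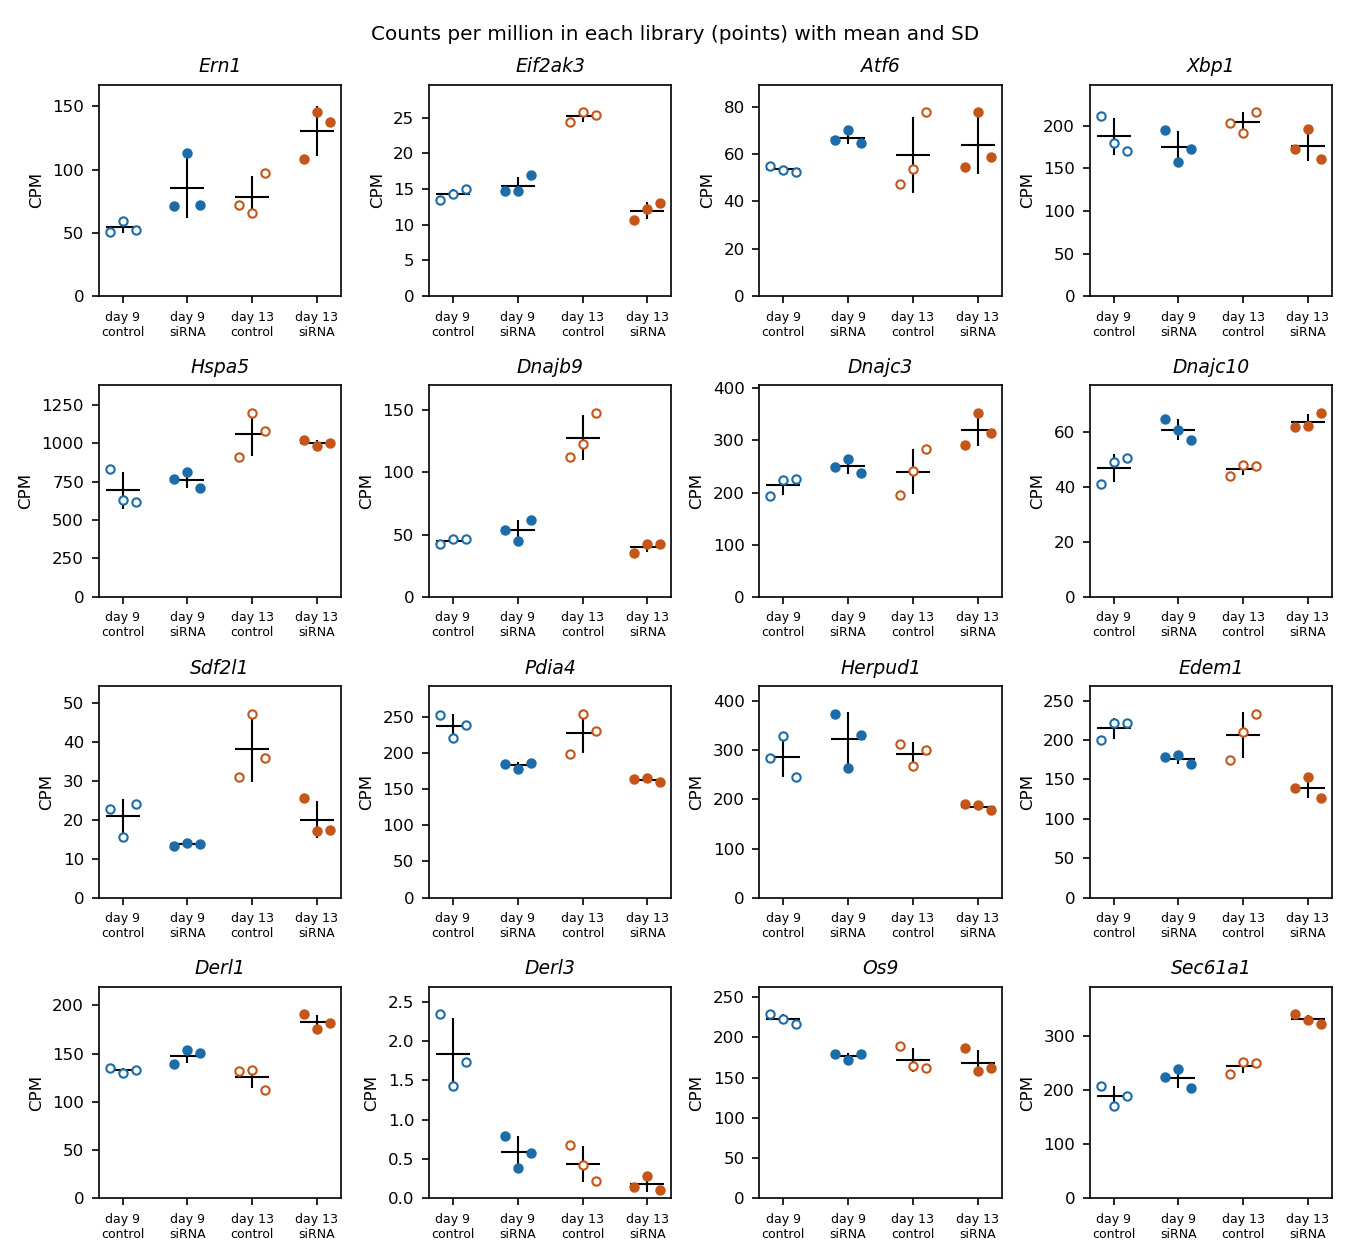
CPM of 16 members in each of the 12 libraries (points, replicates 1 to 3 from left to right) with mean and SD (bars), on linear axes that start at 0. Dnajb9 and Eif2ak3 stand out in the day 13 controls, Ern1 and Sec61a1 are higher and Pdia4 and Edem1 lower in the siRNA libraries of day 13, and Hspa5 and Xbp1 overlap between the groups at both days.

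Of the lectin chaperones and disulfide isomerases, Pdia4 alone was called, at both days. Pdia4, also known as ERp72, stood at 253, 221 and 238 CPM in the day 9 controls and at 185, 179 and 186 CPM after siRNA. At day 13 Pdia4 stood at 199, 255 and 231 CPM in the controls and at 164, 165 and 159.9 CPM after siRNA. The siRNA libraries were tightly grouped and below every control at both days. The log2 fold change of Pdia4 was −0.38 at day 9 (SE 0.104, edgeR adjusted p = 0.0305) and −0.48 at day 13 (SE 0.106, edgeR adjusted p = 0.00455). Its day 9 call ended without day 9 control replicate 1 or 3 or any 1 of the 3 day 9 siRNA libraries (edgeR adjusted p = 0.0772 to 0.114). The lectins Calr (−0.27 and −0.09) and Canx (0.06 and 0.14) and the isomerases P4hb (−0.14 and 0.22), Pdia3 (−0.26 and −0.11) and Pdia6 (−0.21 and −0.16) were not called at day 9 or day 13. Calr, P4hb, Pdia3 and Pdia6 were lower in every day 9 siRNA library than in any day 9 control. The same held for 21.0% of all genes tested.

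Of 10 ERAD members 2 were called at day 9 and 3 at day 13, in both directions at day 13, where 12.8% and 23.7% of all genes were called. The siRNA and control libraries did not overlap for 2 higher and 5 lower ERAD members at day 9. At day 13 they did not overlap for 1 higher and 4 lower members. Of all genes tested, 43.5% did not overlap at day 9 and 33.2% at day 13. Herpud1, a ubiquitin-like protein of the ER membrane that organises the Hrd1 ligase, stood at 313, 268 and 299.9 CPM in the day 13 controls and at 190.2, 188 and 178 CPM after siRNA. Its siRNA libraries all lay below the controls (−0.66, SE 0.139, edgeR adjusted p = 0.00352). At day 9 Herpud1 overlapped, at 284, 329 and 247 CPM in the controls and 375, 265 and 331 CPM after siRNA (0.17, SE 0.137, edgeR adjusted p = 0.452). Edem1, a lectin-like protein that hands mannose-trimmed glycoproteins to ERAD, stood at 175, 209.8 and 234 CPM in the day 13 controls and at 139, 153 and 127 CPM after siRNA. Those groups did not overlap (−0.56, SE 0.119, edgeR adjusted p = 0.00384). At day 9 Edem1 stood at 200.1, 222 and 222 CPM in the controls and at 179, 180.5 and 169 CPM after siRNA, also without overlap, and was not called (−0.29, SE 0.117, edgeR adjusted p = 0.128). It was called there with DESeq2, with the day 9 libraries alone and without the 2 day 13 libraries that stand apart.

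The 3 derlins, membrane proteins of the retrotranslocation step, behaved differently from each other. Derl1 rose at day 13, from 132, 133 and 112 CPM in the controls to 191, 176 and 181 CPM after siRNA (0.54, SE 0.0991, edgeR adjusted p = 0.00153). At day 9 Derl1 stood at 135, 130.3 and 133 CPM in the controls and at 139, 154 and 150.4 CPM after siRNA. The day 9 libraries of Derl1 did not overlap either, but the effect of 0.16 was not called (SE 0.0973, edgeR adjusted p = 0.329). Derl2 had log2 fold changes of −0.17 at day 9 and −0.33 at day 13 and was not called (edgeR adjusted p = 0.0681 at day 13). Derl3 fell at day 9 from 2.34, 1.43 and 1.74 CPM in the controls to 0.789, 0.383 and 0.578 CPM after siRNA, on 72 to 91 and 23 to 44 counts per library. These libraries did not overlap, and the siRNA mean was 31.8% of the control mean (−1.64, SE 0.329, edgeR adjusted p = 0.00562). At day 13 Derl3 had 2 to 5 counts in each control library and 1 to 3 in each siRNA library, too few for a fold change. Derl3 is abundant in plasma cells, whose 8 markers together with B cells summed to 3.69 to 9.96 CPM in the day 9 controls and 4.50 to 7.43 CPM after siRNA, ranges that overlap. At day 13 that sum was 2.28 to 2.96 CPM in the controls and 1.96 to 3.83 CPM after siRNA, again overlapping, with the plasma cell receptor Tnfrsf17 at 0 in all 3 siRNA libraries. Of the 6 of these markers tested, 0 were called at day 9 by edgeR, DESeq2 or limma-voom (1 at an unadjusted p under 0.05 with edgeR). Their log2 fold changes at day 9 ran from −1.18 to 0.21 with a median of −0.61, the same direction as Derl3, and their part in the Derl3 result was not tested.

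Os9, a lectin that delivers glycoproteins to the Hrd1 ligase, stood at 229, 222 and 217 CPM in the day 9 controls and at 179, 172 and 179.7 CPM after siRNA. It fell at day 9 without overlap, close to the threshold (−0.33, SE 0.101, edgeR adjusted p = 0.0455). The call ended under upper-quartile scaling and with no filter, and without any 1 of the 6 day 9 libraries, day 13 control replicate 2 or day 13 siRNA replicate 3 (edgeR adjusted p = 0.0534 to 0.138 for the libraries left out). At day 13 Os9 overlapped, at 189, 164 and 162 CPM in the controls and 186, 158 and 162 CPM after siRNA (−0.03, SE 0.102). The Hrd1 ligase gene Syvn1 (−0.04 and −0.49) and its partner Sel1l (0.03 and −0.04) were not called at day 9 or day 13, Syvn1 at edgeR adjusted p = 0.0573 at day 13. Edem2 (−0.38 and −0.28) and Edem3 (0.44 and −0.35), relatives of Edem1, were not called, and the fitted directions of Edem3 differed between the days.

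In the translocon, Sec61a1, the channel-forming subunit, rose at day 13. It stood at 231, 252 and 250 CPM in the controls and at 340.4, 330.3 and 323 CPM after siRNA, with every siRNA library above every control (0.44, SE 0.103, edgeR adjusted p = 0.00712). At day 9 Sec61a1 stood at 207, 172 and 189 CPM in the controls and at 224, 239 and 204 CPM after siRNA, which overlapped slightly (0.23, SE 0.102, edgeR adjusted p = 0.160). Its exons share 549 bases with the antisense gene Gm44170. The small channel subunit Sec61b (0.00 and 0.02) and the translocon-associated protein Ssr1 (0.10 and 0.14) were not called at day 9 or day 13. Wfs1, an ER membrane protein that restrains ATF6, was not called (−0.12 and −0.29).

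Arranged by branch of the UPR, none of the 11 listed ATF6 targets was called higher by edgeR at day 9 or day 13, and of the 5 listed IRE1-XBP1 targets Dnajc3 was, at day 13. In the PERK-ATF4-CHOP list 5 and 6 of 11 genes rose at the respective days. The lists are short, and Sec61a1, Derl1 and Serp1, also known as targets of XBP1, stand outside them. All of these were called higher at day 13 (0.44, 0.54 and 0.77 in that order), and Serp1 alone also at day 9 (0.69). The counts and medians of the IRE1-XBP1 list therefore hold for the listed targets only. Of all genes tested, 5.94% were called higher and 6.84% lower at day 9, and 12.8% and 10.9% at day 13. Of 11 ATF6 targets among the members, 0 rose and 2 fell at day 9 (median −0.17). At day 13, 0 rose and 3 fell, with a median of −0.36 over the 11 and of −0.23 over the 10 other than Derl3, which has too few counts there for a fold change. The same counts were 0 up and 4 down at day 9 and 0 up and 3 down at day 13 with DESeq2, and 0 up and 3 down at each day with limma-voom. With edgeR, 4 of the 11 had an unadjusted p under 0.05 at each day. Those called were Pdia4 and Derl3 at day 9 and Pdia4, Herpud1 and Sdf2l1 at day 13. Of 5 IRE1-XBP1 targets none was called at day 9 with edgeR or limma-voom (1 at an unadjusted p under 0.05 with edgeR), DESeq2 called 1 down, and the median was 0.06. At day 13 Dnajc3 rose and Dnajb9 and Edem1 fell (median −0.16). The medians over all genes were 0.01 at day 9 and 0.00 at day 13. Among the 9 members with ERSE letters, Derl3 fell and none rose at day 9 (median −0.17), and Dnajc3 rose and none fell at day 13 (median −0.10, and −0.09 over the 8 without Derl3).

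The PERK-ATF4-CHOP list holds 11 further genes, which other eIF2α kinases can also switch on through ATF4. At day 9, 5 rose and 0 fell (median 0.85), and DESeq2 and limma-voom each gave 6 up and 0 down. At day 13, 6 rose and Ddit4, an inhibitor of mTORC1, fell by 1.19 (median 0.98). Log2 fold changes of the listed genes not called ran from −0.55 to 1.05 at day 9 and from −2.33 to 0.64 at day 13. Ddit3, the gene of CHOP, stood at 5.71, 5.21 and 4.27 CPM in the day 9 controls and at 22.9, 38.1 and 31.5 CPM after siRNA. At day 13 Ddit3 stood at 5.92, 5.84 and 2.82 CPM in the controls and at 94.5, 75.8 and 93.4 CPM after siRNA. The groups of Ddit3 lay far apart at both days, with log2 fold changes of 2.60 and 4.20 (SE 0.226 and 0.265, edgeR adjusted p = 3.90e-05 and 1.23e-06). Trib3, a pseudokinase that binds CHOP and ATF4, rose by 1.69 at day 9 and 5.16 at day 13, and Sesn2, a regulator of mTORC1, by 1.18 and 1.29. The transcript of Atf4 itself was not called (−0.26 and 0.04), and its translation was not measured. CARE letters were found in the windows of 5 of the 10 genes of this list that had one, against the 4.51% of all genes given above. The list was drawn up as genes of the ATF4 branch, so this higher share is not an independent result. The kinase gene Eif2ak3 was lower at day 13, when Ddit3, Trib3 and Sesn2 were higher.

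**Figure D5:**
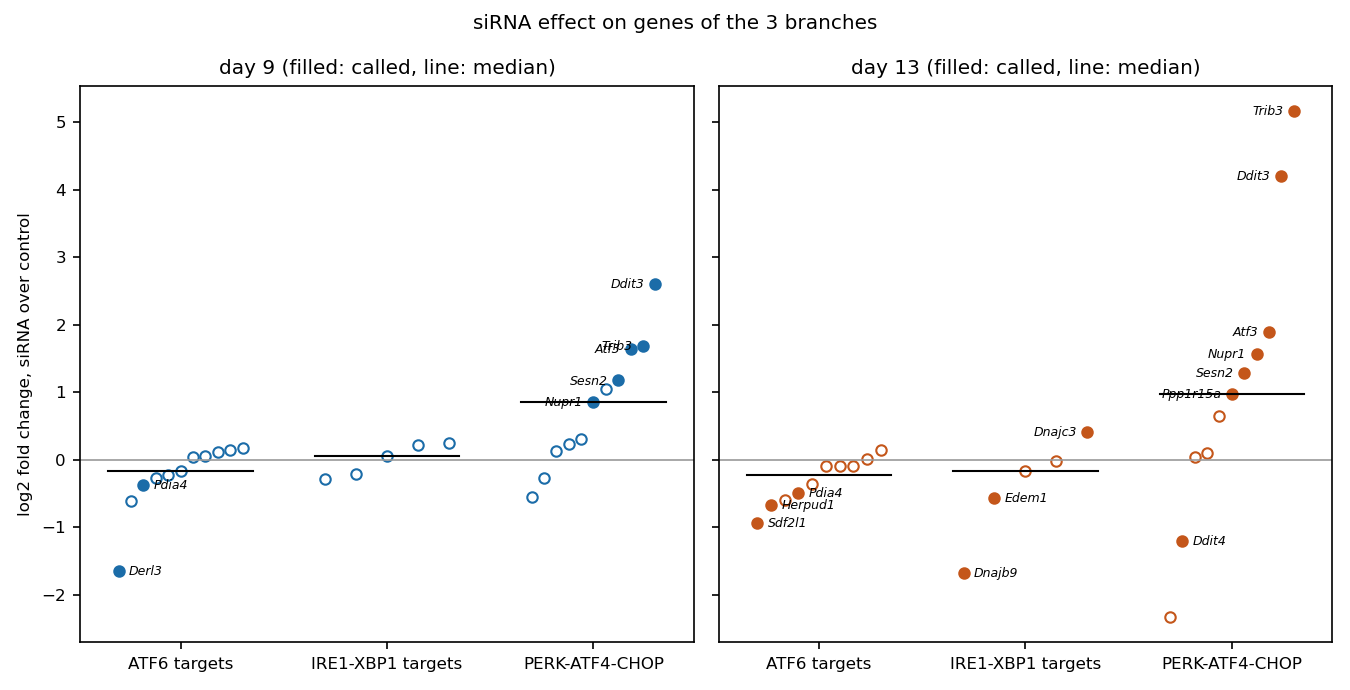
Log2 fold change of siRNA over control for 11 ATF6 targets, 5 IRE1-XBP1 targets and 11 genes of the PERK-ATF4-CHOP branch at day 9 (left) and day 13 (right), with called genes filled and named and the median of each list as a line. The medians of the ATF6 targets are −0.17 and −0.23 and those of the PERK-ATF4-CHOP genes 0.85 and 0.98. Derl3, at 1 to 5 counts per library at day 13, is left out there, so that panel shows 10 ATF6 targets.

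Other genes of the same processes, listed beside the members, also moved in both directions. The shares called at day 9 and day 13 were 16.7% and 38.9% for the further ERAD genes. For the genes of translocation they were 15.0% and 25.0%, and for all genes tested 12.8% and 23.7%. Of 18 further ERAD genes, Ube2j1 rose and Vcp and Rnf5 fell at day 9 (median −0.01), and 4 rose and 3 fell at day 13 (median 0.13). Rnf5, a ubiquitin ligase of the ER membrane, fell at both days (−0.51 and −0.71). Ufd1, a cofactor of the extracting ATPase Vcp, had values of 0.34 at day 9 (not called) and 0.59 at day 13 (called), while the ubiquitin-conjugating enzyme Ube2g2 fell at day 13 (−0.48). Of 20 further genes of translocation, signal recognition and signal cleavage, 3 rose and 0 fell at day 9 (median 0.15; DESeq2 4 and 0, limma-voom 3 and 0), and 4 rose and Sec11c fell at day 13 (median 0.12). Serp1, which stabilises nascent membrane proteins, rose at both days (0.69 and 0.77), as did Srp72 of the signal recognition particle (0.39 and 0.52). Srprb, a subunit of its receptor, rose at day 9 (0.68) and was not called at day 13 (0.33).

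Of 12 further disulfide isomerases and oxidases, edgeR called none at day 9 (4 at an unadjusted p under 0.05; DESeq2 2 up and 1 down, limma-voom 1 up and 1 down; median 0.10). At day 13 Txndc12 rose and 3 fell (median −0.07), namely Txndc11, a thioredoxin-like protein (−0.81), the sulfhydryl oxidase Qsox1 (−0.73) and the collagen prolyl hydroxylase subunit P4ha1 (−0.66). Of 13 genes of N-glycosylation and the calnexin cycle none was called at day 9 by edgeR, DESeq2 or limma-voom (0 at an unadjusted p under 0.05 with edgeR), and 2 rose at day 13 (median 0.19). These were both subunits of glucosidase II, Prkcsh (0.71) and Ganab (0.26), the latter at edgeR adjusted p = 0.0490 and lost under 18 of 21 alternatives, among them 12 in which 1 library was left out (edgeR adjusted p = 0.0546 to 0.123, that is without any 1 of the 12). Of 12 further UPR regulators Hspa13 rose (0.57) and Tmbim6 fell (−0.63) at day 9. At day 13 Rtcb, the ligase that joins Xbp1 exons, rose (0.39), and Tmbim6 (−0.67), Creb3l2 (−0.83) and Ppp1r15b (−0.66) fell. At day 9 and day 13, 0.0% and 33.3% of the isomerases and oxidases were called, and 0.0% and 15.4% of the N-glycosylation genes. For the regulators the shares were 16.7% and 33.3%, and for all genes tested 12.8% and 23.7%. Tmbim6, also called Bax inhibitor 1 and known to restrain IRE1, went from 1524 to 1726 CPM in the day 13 controls to 962 to 1118 CPM after siRNA. The day 9 calls of Rnf5, Srp72, Srprb and Hspa13 each ended in 4 or 5 of the 12 fits that left out 1 library (edgeR adjusted p = 0.0530 to 0.0921).

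The difference between the days, which is the day 13 effect minus the day 9 effect, was called for 3 members, all lower (8.57%, against 2.55% of all genes, 0.898% higher and 1.66% lower). It was −1.92 for Dnajb9 (SE 0.196, edgeR adjusted p = 0.000664), −1.19 for Eif2ak3 (SE 0.161, edgeR adjusted p = 0.00277) and −0.84 for Herpud1 (SE 0.195, edgeR adjusted p = 0.0421). No member was called higher by edgeR or limma-voom, with 6 members at an unadjusted p under 0.05 in either direction with edgeR, and DESeq2 called Derl1 higher. For Dnajb9 and Eif2ak3 the difference stood beside higher values in the day 13 controls than in the day 9 controls, with mean levels of 128 against 45.1 CPM and 25.2 against 14.3 CPM. For Herpud1 the control means were alike, at 294 CPM at day 13 and 287 CPM at day 9. The call of Herpud1 ended without both day 13 libraries that stand apart (edgeR adjusted p = 0.0591), without day 9 control replicate 1 or 3, day 9 siRNA replicate 1 or 3, day 13 control replicate 1 or 3 or day 13 siRNA replicate 1 or 3 (edgeR adjusted p = 0.0567 to 0.111). The calls of Dnajb9 and Eif2ak3 were kept under all 20 alternatives run for the difference and under all 21 run for day 13. For Ern1 the difference was 0.08 (SE 0.270), and for Pdia4 and Dnajc10, also called at both days, it was −0.11 (SE 0.148) and 0.08 (SE 0.150), none of them called.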

How the data were processed

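The labels' protocols state ground livers, Qiagen RNeasy extraction and KAPA mRNA capture. The authors deposited 1 table of estimated counts per Ensembl gene (expected counts, whole numbers in the file) with a column for each of 12 libraries. Per the submitters' processing notes the tools were STAR 2.5.3a and RSEM 1.3.0 with build mm10. No source used here gives the annotation, the strand setting or any filter. Genes that overlap others can therefore share counts.

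Symbols and exons came from GENCODE M21. Genes were kept with filterByExpr at a minimum count of 10 (14248 genes with at least 99.9% of each library's counts), scaled by TMM and tested with edgeR 4.0.16, quasi-likelihood and robust, with 1 coefficient per group (4 groups, 8 residual degrees of freedom). Tests are two-sided, p-values are adjusted by Benjamini-Hochberg over all genes, and the threshold is 0.05. The SE of a log2 fold change was derived from its F statistic. The steps were tested on simulated data. Same-numbered libraries were not paired by the labels. Alternatives used DESeq2 1.42.0, limma 3.58.1 (voom), other scalings and filters, the replicate number as a block, a day alone, each library left out, and, chosen after seeing the data, both day 13 libraries that stand apart left out. R 4.3.3, Python 3.11.15 and matplotlib 3.10.9 were used.

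The members and lists were chosen with earlier results of these data known. Values in every library are given for members called at either day or for the difference, for the signalling members and for Hspa5. From each list of further genes up to 3 called genes with the smallest p were named, and Atf4 and Ddit3 always. Some other called genes of those lists are also named, after their values were seen, and others are counted without being named.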

Additional observations from a re-analysis of the deposited data

Results flagged for a closer look

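The siRNA effect differed between day 9 and day 13, by edgeR's test of the difference itself, for 12 of the genes named, and values are the day 13 effect minus the day 9 effect on the log2 scale. Among the members these were Dnajb9 (−1.92), Eif2ak3 (−1.19) and Herpud1 (−0.84). Among genes of the PERK-ATF4-CHOP branch the difference was 1.60 for Ddit3, 3.47 for Trib3 and −1.32 for Ddit4 (edgeR adjusted p = 0.0398), the last named after its values were seen. Trib3 had lower controls at day 13 (1.52 to 2.42 CPM) than at day 9 (8.52 to 11.9 CPM). The thioredoxin-like Txndc11 (−0.98), the prolyl hydroxylase subunit P4ha1 (−0.88) and the ER membrane transcription factor Creb3l2 (−1.03) were not called at day 9 and fell at day 13. P4ha1 had higher controls at day 13 (24.5 to 25.9 CPM) than at day 9 (7.71 to 8.98 CPM). Hspa13, an HSP70 relative, rose at day 9 and was not called at day 13 (−0.85). The glucosidase II subunit Prkcsh (0.62) and the ER-phagy receptor Retreg1 (0.66) rose at day 13 and were not called at day 9. The calls for Ddit3, Herpud1, Prkcsh, Creb3l2, Hspa13 and Retreg1 were lost in 6, 8, 11, 6, 10 and 10 of the 12 fits that left out 1 library, with edgeR adjusted p = 0.0546 to 0.126.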

How the results depend on the processing

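Same-numbered libraries did not deviate together (correlations of −0.158 to 0.158 at day 9 and −0.0671 to 0.0811 at day 13), and 2 of 6 libraries at each day correlated best with their own number. With the replicate number as a block, counts at day 9 were 542 genes higher and 674 lower with 1 member higher and 1 lower, at day 13 1453 and 1228 with 5 and 6, and for the difference 28 and 89 with 0 and 2. The calls of Dnajc10 (edgeR adjusted p = 0.0887), Pdia4 (0.0755) and Os9 (0.0799) at day 9 and of the Herpud1 difference (0.118) ended with it. Without it they were 846 and 975 with 2 and 3, 1824 and 1553 with 5 and 6, and 128 and 236 with 0 and 3. With a day fitted alone, day 9 gave 1687 genes higher and 1725 lower with 4 members higher and 6 lower, and day 13 gave 1060 and 954 genes. Without both day 13 libraries that stand apart, day 9 gave 1422 and 1628 genes with 4 and 6 members, and the difference 288 genes higher. Limma-voom gave 1303 genes higher at day 9, no filter gave 1 member higher at day 9, and DESeq2 gave 6 members lower at day 9 and 451 genes higher, 517 lower and 1 member higher for the difference. Leaving out each library gave 413 to 1075 genes higher and 471 to 1190 lower at day 9 with 0 to 2 and 1 to 5 members, 1207 to 1752 and 1092 to 1566 at day 13 with 3 to 5 and 6 to 8 members, and 34 to 260 and 96 to 248 for the difference with 0 and 2 to 4 members.

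Of 2166 member values under the alternatives 63 had the opposite sign, none of them a called value. They fell in 25 member effects. Listed here are only those of members whose values in every library are given, and Atf4. Leaving out each library gave −0.036 to 0.33 for the Ern1 difference, −0.081 to 0.32 for Atf6 at day 13, −0.20 to 0.0024 for Xbp1 at day 9, −0.19 to 0.010 for Hspa5 at day 13, −0.098 to 0.052 for Os9 at day 13, −0.11 to 0.90 for the Derl3 difference and −0.14 to 0.17 for Atf4 at day 13. Without both libraries that stand apart the Derl3 difference was −0.49 and Atf4 at day 13 −0.044, and Atf4 was −0.0099 under upper-quartile scaling. The causes of these changes of sign were not tested. Depth at day 13 limits Derl3, which had 1 to 5 counts per library there.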

Other observations

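The 3 lists here were chosen after the values of the members had been seen. Of all genes tested, 12.8% were called at day 9 and 23.7% at day 13. The lists gave 0.0% and 15.8% for ER exit and retrieval, 12.5% and 25.0% for ER-phagy and 11.1% at both days for ER calcium. Of 19 genes of ER exit and KDEL retrieval, edgeR called none at day 9 (3 at an unadjusted p under 0.05; DESeq2 called 1 down and limma-voom 1 up), and 3 fell at day 13, with medians of 0.02 and −0.09. Those 3 were Mia3, which loads large cargo at ER exit sites (−0.63), and the COPII coat subunits Sec23b (−0.46) and Sec24b (−0.47). Mia3 stood at 163, 155 and 163 CPM in the day 13 controls and at 99.9, 105 and 105 CPM after siRNA. The groups of Mia3 did not overlap. Without the 2 day 13 libraries that stand apart, Sec23b (−0.51, edgeR adjusted p = 0.0529) and Sec24b (−0.49, edgeR adjusted p = 0.0557) were no longer called.

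Of 8 ER-phagy receptors, which mark parts of the ER for autophagy, Retreg2 fell at both days (−0.40 and −0.49), and Retreg1, also called FAM134B, rose at day 13 (0.63) from 47.8, 58.9 and 62.6 CPM in the controls to 89.9, 82.9 and 90.1 CPM after siRNA. The siRNA libraries of Retreg1 lay above the controls at day 13, while at day 9 all 6 libraries stood between 85.5 and 102 CPM. Of 9 genes of ER calcium, the pump Atp2a2 rose at day 9 (0.53) and the calcium sensor Stim2 fell at day 13 (−0.50). Stim2 was no longer called without the 2 day 13 libraries that stand apart (−0.48, edgeR adjusted p = 0.0654). The calls of Sec23b, Sec24b and Stim2 at day 13 and of Retreg2 and Atp2a2 at day 9 ended in 4 or 5 of the 12 fits that left out 1 library (edgeR adjusted p = 0.0522 to 0.116).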
